A study of Mus musculus with 27 samples.

Results

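Aberrant induced pluripotent stem (iPS) clones without Utx were compared with wild-type (WT) embryonic stem cells (ESC) by their H3K4me3 and H3K27me3 peaks. The members are 6 of the 19 peak lists of the series: the H3K4me3 and the H3K27me3 list of clone 1, of clone 2 and of WT ESC, chosen by sample title. Regions were formed by merging overlapping peaks of the 3 lists of a mark, with an overlap of at least 1 bp, and each was placed by whether both clones, a single clone or neither clone shared it with WT ESC. The members hold 23388 H3K4me3 peaks in clone 1, 28232 in clone 2 and 19468 in WT ESC, and 135 H3K27me3 peaks in clone 1, 737 in clone 2 and 5679 in WT ESC.

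Both clones were male mouse cells of the V19-OSKM strain with the genotype Utx-/Y. They came out of reprogramming that the submitters call improper, and had no doxycycline when collected. WT ESC were of the V6.5 strain, Utx+/Y, without doxycycline, and were expanded in N2B27 2i/LIF medium. Each clone is a single line with 1 library per mark, and WT ESC also had 1 library per mark. The clones differ from WT ESC in strain, in Utx and in their passage through fibroblasts and reprogramming, and these cannot be told apart here. The other lists of the series, used below as further readouts of the same regions, come from WT and Utx-KO mouse embryonic fibroblasts (MEF) of the V19-OSKM strain with and without doxycycline (dox), and from Utx-KO ESC of the V6.5 strain. UTX itself was mapped in the 3 WT states. Peaks were placed in mm9 and the gene tables at hand use another build, so regions are named by position, and neither the Utx deletion nor marker genes of pluripotent cells or fibroblasts were checked.

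UTX is an enzyme of the KDM6 family that removes methyl groups from the Polycomb mark H3K27me3, and it also travels with the methyltransferase complexes that write H3K4me1. H3K4me3 marks the start of active genes and of genes that are poised, and H3K27me3 covers genes silenced by Polycomb. In embryonic stem cells many developmental genes carry both marks at once, a state known as bivalent chromatin. During reprogramming, somatic cells have to set up this pattern again while fibroblast genes are shut down.

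The score of each peak is the authors', written by their peak caller from the peak's probability. It grows with read depth as well as with enrichment, it starts at 50 in these lists, and it was used to rank peaks within a list. No read totals were used here, so depth was unknown and a region missing from a list may still carry some of the mark. The H3K4me3 lists covered 34.9 Mb in clone 1, 55.5 Mb in clone 2 and 46.1 Mb in WT ESC, with median peak widths of 1304, 1686.5 and 2099 bp. The H3K27me3 lists were far apart. None of the 135 peaks of clone 1 scored 100 or more, which allows a share of up to 2.77% (Wilson 95% upper limit), while 95.7% of the clone 2 peaks and 17.6% of the WT ESC peaks did. Percentages below carry Wilson 95% intervals where given. These intervals cover counting error over regions, not variation between cultures, and with 1 WT ESC library no difference between clones and WT ESC was tested.

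H3K4me3 was present in both clones at most of the regions that carry it in WT ESC. Of 19030 WT ESC regions, 16017 were in both clones, a share of 84.2% (83.6 to 84.7), and 1350 or 7.09% (6.74 to 7.47) were in neither. Clone 1 had 84.6% of them and clone 2 had 92.4%. Conversely, 3217 regions were in both clones and not in WT ESC, 16.7% (16.2 to 17.3) of the 19234 regions that the clones share. Of all 29736 merged H3K4me3 regions, those 3217 make up 10.8% and the 1350 WT ESC regions without a clone peak make up 4.54%. The clones resembled each other more closely in one direction than in the other, with the list of clone 2 the longer one: 95.8% of the clone 1 regions were in clone 2, and 69.8% of the clone 2 regions were in clone 1. A further 750 regions were in clone 1 alone of the 3 lists and 6739 in clone 2 alone, with median scores of 125 and 81.5.

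**Figure D1:**
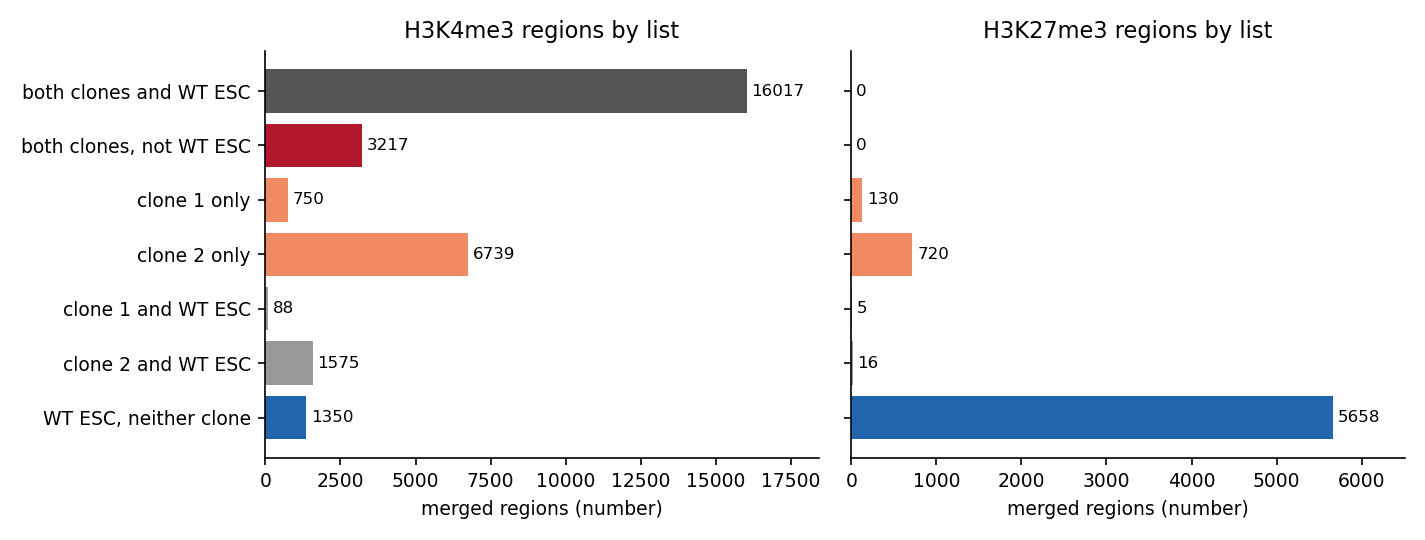
Number of merged H3K4me3 regions (left) and H3K27me3 regions (right) by the lists that hold them, clone 1, clone 2 and WT ESC. For H3K4me3 the largest class, 16017 regions, is common to the 3 lists, while for H3K27me3 the largest, 5658 regions, is in WT ESC and neither clone, and the 2 classes that need both clones hold 0.

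The number of regions in both clones and not WT ESC over that of WT ESC regions in neither clone gave a log2 ratio of 1.25 (exact 95% binomial interval 1.16 to 1.35), but its size and direction changed with the clone and with which peaks were counted. Merged with WT ESC one at a time, clone 1 gave 0.53 and clone 2 gave 2.79, both against the same WT ESC list. When each list was cut to its 19468 top-scoring peaks the ratio turned to -0.86, with 1489 regions in both clones and not in WT ESC and 2706 in WT ESC and neither clone, while with a score of at least 100 in every list it was 2.96. Against WT ESC by itself, clone 2 had 9978 regions that WT ESC lacked and clone 1 left 3033 WT ESC regions without a peak.

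The WT ESC regions that the clones lacked were mostly weak. Of the 1233 WT ESC regions with a score under 60, clone 1 had 37.3%, clone 2 had 61.3%, and 36.9% were in neither clone. From 80 to 120 the share in neither clone was 14.1%, from 200 to 400 it was 2.67%, and of the 6142 regions with a score of 1000 or more it was 0.0326%, that is 2 regions. Among regions with a score of at least 100, 93.7% were in both clones and 2.13% in neither. Utx-KO ESC, which share the deletion and the strain of WT ESC, followed the same order, with 34.96% of the regions under 60 and 99.98% of those of 1000 or more.

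**Figure D2:**
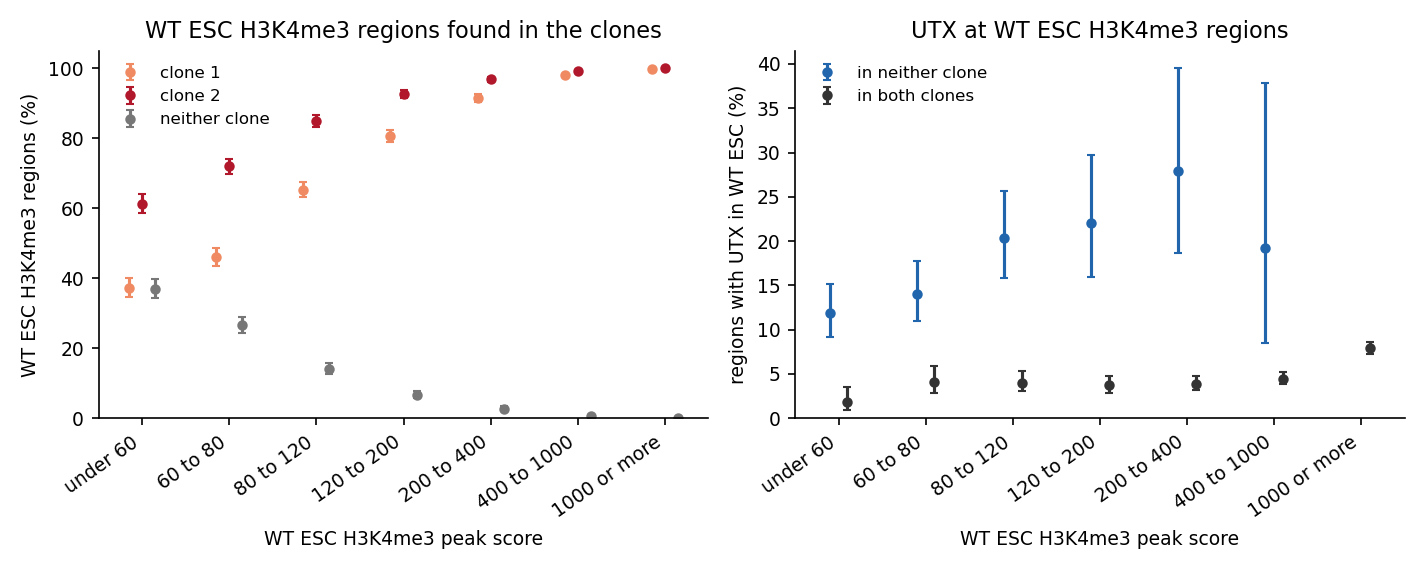
Left, percent of WT ESC H3K4me3 regions found in clone 1, in clone 2 and in neither clone, by the WT ESC peak score. Right, percent of those in neither clone and in both clones that carry a UTX peak in WT ESC, shown where a class holds at least 20 regions. Bars are Wilson 95% intervals over regions. The share in neither clone falls from 36.9% at scores under 60 to 0.0326% at 1000 or more, and in each score class drawn for both groups the UTX share is higher among the regions in neither clone.

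UTX peaks of WT ESC lay more often on the H3K4me3 regions that the clones lacked. They overlapped 218 of the 1350 regions in neither clone, 16.1% (14.3 to 18.2), and 879 of the 16017 regions in both clones, 5.49% (5.15 to 5.85). With an overlap of 50% of the shorter peak the shares were 10.7% and 4.60%, and with a score of at least 100 in every list, UTX included, 13.9% and 1.46%. Regions that the clones had and WT ESC lacked carried a WT ESC UTX peak in 1.59% of cases. The WT ESC score differs between these classes, so the shares were also taken within score classes. Between 80 and 120, UTX was at 20.3% of the regions in neither clone and 4.01% of those in both clones, and between 200 and 400 at 27.9% (18.7 to 39.6) and 3.87% (3.16 to 4.73). Turned round, 16.7% of the 1304 WT ESC H3K4me3 regions with UTX were in neither clone, against 6.39% of the 17726 without UTX. Each clone showed this on its own. Clone 1 lacked 30.8% of the regions with UTX and 14.2% of those without, and clone 2 lacked 18.5% and 6.75%. Utx-KO ESC lacked 20.6% of the regions with UTX and 11.9% of those without, against the same WT ESC lists. At WT ESC scores of 400 to 1000, clone 1 lacked 11.4% of 184 regions with UTX and 1.52% of those without, and clone 2 lacked 2.72% and 0.734%. Utx-KO ESC lacked 0 of the 184, which allows a share of up to 2.05%, and 0.0282% of the 3541 without UTX. With so few missing, that score class cannot show a contrast in Utx-KO ESC. At scores of 200 to 400 Utx-KO ESC lacked 7.43% with UTX and 1.75% without, and at 120 to 200 it lacked 26.8% and 9.19%.

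The 10 leading H3K4me3 regions of WT ESC without a peak in either clone had WT ESC scores of 566 to 1845 and widths of 2317 to 9546 bp. All 10 were marked in Utx-KO ESC, as were 99.97% of all WT ESC regions scoring 400 to 1000. Of the 10, 1 was marked in dox-treated WT MEF, and none had H3K4me3 in WT MEF, in Utx-KO MEF or in dox-treated Utx-KO MEF. None carried H3K27me3 in any list, and 3 carried UTX in WT ESC. The first, on chromosome 3 from 135211163 to 135220708, was 9546 bp wide with a score of 1845 and had UTX. The second and the fourth lay on chromosome X, from 104493445 to 104497086 with a score of 1264 and from 7625893 to 7631975 with a score of 894. On chromosome 10 the region from 88144826 to 88148450 scored 824 and on chromosome 2 the region from 93765900 to 93770334 scored 566, and both had UTX.

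Taken over all 1350 WT ESC regions in neither clone, 32.7% (30.2 to 35.2) were marked by H3K4me3 in Utx-KO ESC, 6.07% in dox-treated WT MEF, 3.63% in dox-treated Utx-KO MEF, 1.33% in Utx-KO MEF and 1.11% in WT MEF. In 836 of them, 61.9%, none of the 5 other states had a peak. H3K27me3 was rare there: 3 regions had it in WT ESC and 51, or 3.78%, in Utx-KO ESC. For comparison, the 16017 regions in both clones and WT ESC were marked in Utx-KO ESC in 95.1% of cases and in Utx-KO MEF in 72.7%.

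The 3217 regions in both clones and not in WT ESC had another profile. H3K4me3 was present at 44.8% (43.1 to 46.5) of them in dox-treated WT MEF, at 32.3% in Utx-KO ESC, at 30.2% in dox-treated Utx-KO MEF, at 17.6% (16.3 to 19.0) in Utx-KO MEF and at 15.8% in WT MEF. In 1203 regions, 37.4%, none of these 5 states had a peak. Over all 29736 merged H3K4me3 regions the shares of the 5 states, in the same order, were 58.2%, 62.5%, 52.1%, 43.3% and 42.1%. Each was above that of the 3217 regions, and 27.0% of the 29736 had a peak in none of the 5. The 29736 include the 19030 WT ESC regions, which the 3217 lack by definition, and this favours the higher shares. Regions in clone 1 alone and in clone 2 alone also have no WT ESC peak. In dox-treated WT MEF 10.8% and 19.0% of them were marked, and in Utx-KO ESC 8.67% and 12.2%. Each was below the share of the 3217, as in the other fibroblast states, but these regions also had lower median scores. Utx-KO MEF, with or without dox, had H3K4me3 at 1019 of the 3217 or 31.7%, of which 402 were marked in Utx-KO ESC too. With clone 2 alone against WT ESC, 10.4% of the regions were marked in Utx-KO MEF and 18.7% in Utx-KO ESC. H3K27me3 was common at these sites in the stem cells: 528 regions, 16.4% (15.2 to 17.7), carried it in WT ESC and 1676, 52.1% (50.4 to 53.8), in Utx-KO ESC, while regions in both clones and WT ESC had 9.02% and 28.1%. The H3K27me3 list of Utx-KO ESC is much longer than that of WT ESC, with 36231 peaks, so the shares of these 2 lists are not on one scale. The WT ESC share depended on how the regions were chosen: it was 8.08% for clone 2 alone, 7.05% with a score of at least 100 in every list and 2.55% with equal numbers of top-scoring peaks. In the clones themselves, 1 of the 3217 regions had an H3K27me3 peak in clone 1 and 5 had one in clone 2. Most of these regions stood apart from constant H3K4me3, with a median distance of 16122 bp to the nearest region in all 3 lists and 24.6% within 5000 bp. For WT ESC regions in neither clone the median was 18604 bp, with 24.4% within 5000 bp.

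**Figure D3:**
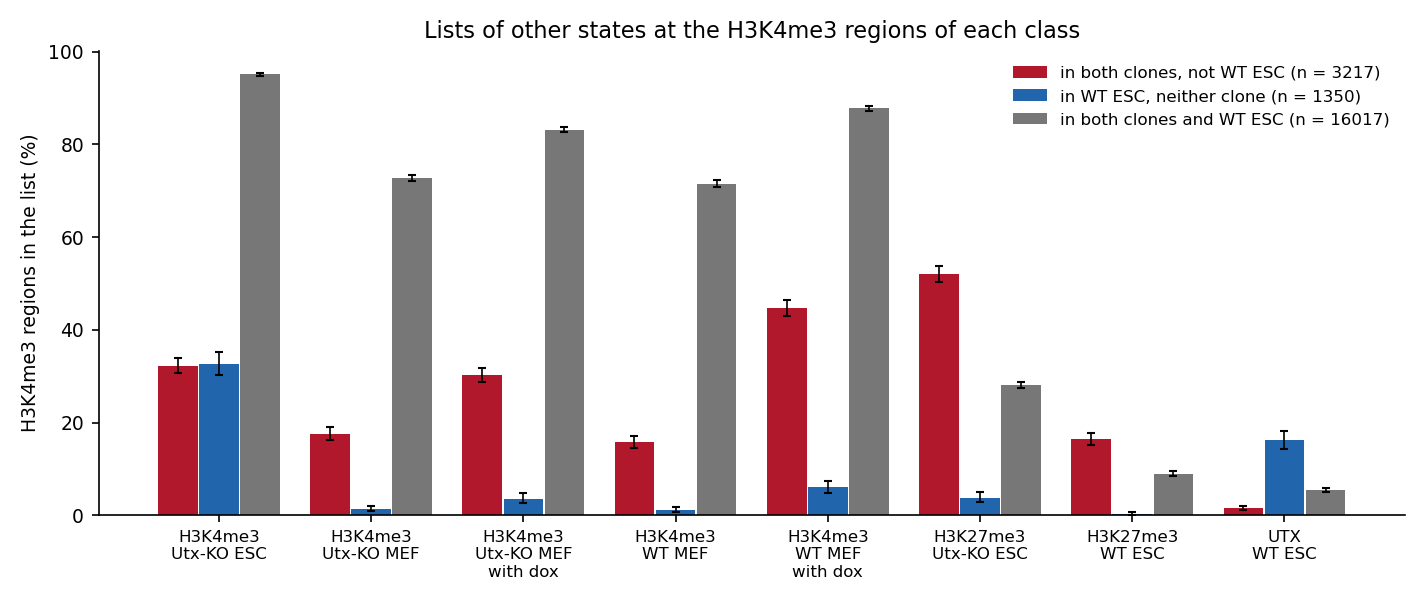
Percent of H3K4me3 regions that overlap a peak in lists of the other states and in the WT ESC lists of H3K27me3 and UTX, for regions in both clones and not WT ESC (3217), in WT ESC and neither clone (1350), and in both clones and WT ESC (16017). Bars are Wilson 95% intervals over regions. Utx-KO ESC H3K4me3 covers a like share of the first 2 classes, 32.3% and 32.7%, while H3K27me3 of WT ESC is at 16.4% of the first and 0.222% of the second, and UTX at 1.59% and 16.1%.

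The leading regions of this class were strong in the clones and marked in several other states. The region on chromosome 6 from 88146150 to 88150755 scored 2651 in clone 1 and 2725 in clone 2, with widths of 3858 and 4606 bp and no WT ESC peak. It had H3K4me3 in all 5 other states and H3K27me3 in WT ESC and Utx-KO ESC. Next on the same chromosome came the region from 127097780 to 127106097, 8318 bp wide in clone 2 and split into 3 peaks in clone 1, with scores of 2044 and 3100, and the region from 149513683 to 149515717, with scores of 1814 and 2280. The fifth was on chromosome 11 from 82743534 to 82747618, with scores of 1372 and 2934, and the eighth on chromosome 1 from 75417677 to 75420471, with 1319 and 2010. All 10 leading regions were marked by H3K4me3 in Utx-KO ESC and in dox-treated WT MEF, 8 in WT MEF, 7 in dox-treated Utx-KO MEF and 6 in Utx-KO MEF. Of the 10, 9 had H3K27me3 in at least 1 list and 6 had it in WT ESC. The ninth in order was on chromosome 8 from 74223595 to 74226079, with scores of 1303 and 1826.

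H3K27me3 of WT ESC was almost absent from the lists of the clones. Of 5679 WT ESC regions, 5658 or 99.6% (99.4 to 99.8) were in neither clone, 86.7% of all 6529 merged H3K27me3 regions. Clone 1 shared 5 with WT ESC and clone 2 shared 16. No region was in both clones, with WT ESC or without it, so regions in both clones and not in WT ESC made up 0% of the 6529. This was so for strong WT ESC peaks too. The first 10 WT ESC regions without a clone peak scored 384 to 549 and were 3031 to 8247 bp wide. The top pair both lay on chromosome 2, from 31489572 to 31496459 and from 33487592 to 33495838. All 10 had H3K27me3 in Utx-KO ESC, 8 in WT MEF and 7 in Utx-KO MEF, and all 10 had H3K4me3 in dox-treated WT MEF. At the same 10 regions H3K4me3 was present in clone 2 at 10, in clone 1 at 7 and in WT ESC at 5. The low numbers of H3K27me3 peaks in the clones, and their low scores in clone 1, go with this result, and their part in it was not tested.

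At the places where WT ESC had H3K27me3, H3K4me3 peaks were more frequent in the clones than in WT ESC. An H3K4me3 peak of clone 1 overlapped 34.7% (33.4 to 35.9) of the 5679 WT ESC H3K27me3 peaks and one of clone 2 overlapped 44.7% (43.4 to 46.0), while WT ESC itself had H3K4me3 at 26.6% (25.4 to 27.7) and Utx-KO ESC at 27.2%. Dox-treated fibroblasts reached levels near those of the clones, 39.0% in WT MEF and 32.5% in Utx-KO MEF, while untreated fibroblasts had 13.3% in WT MEF and 13.0% in Utx-KO MEF. By peak, 1345 had H3K4me3 in both clones and WT ESC, 601 or 10.6% in both clones and not WT ESC, 478 in 1 clone and not WT ESC, 135 in WT ESC and 1 clone, 28 in WT ESC and neither clone, and 3092 in none of the 3. The H3K4me3 lists of both clones hold more peaks than that of WT ESC, and the part of list length in these counts was not tested. Of the 135 peaks with H3K4me3 in WT ESC and 1 clone, 131 had it in clone 2 and 4 in clone 1. The 601 sites had H3K4me3 in dox-treated WT MEF in 68.9% of cases, in dox-treated Utx-KO MEF in 45.3%, in Utx-KO ESC in 31.3%, and in Utx-KO MEF and WT MEF in 19.5% each. The 5679 peaks include those with H3K4me3 in WT ESC, which the 601 sites lack by definition. Over the 4171 WT ESC H3K27me3 peaks without H3K4me3 in WT ESC, it was at 20.7% in dox-treated WT MEF. It was at 16.0% in dox-treated Utx-KO MEF, 6.40% in Utx-KO ESC, 5.18% in Utx-KO MEF and 5.32% in WT MEF. Each H3K4me3 share at the 601 sites was above these levels. The 601 were chosen for H3K4me3 in both clones, and the 4171 include the 3092 with none, so higher shares were partly set by the choice. The 478 peaks with H3K4me3 in 1 clone and not WT ESC had 53.1% in dox-treated WT MEF and 13.8% in Utx-KO ESC. The 1345 with H3K4me3 in both clones and WT ESC had 91.6% and 88.7%. In every other state the 601 sites lay between these groups. At the 601 sites H3K27me3 was present in Utx-KO ESC at 97.3%, in dox-treated Utx-KO MEF at 50.9%, in WT MEF at 33.1% and in Utx-KO MEF at 27.5%. Over all 5679 peaks these shares were 78.6%, 25.8%, 16.6% and 14.3%. The 1345 peaks with H3K4me3 in both clones and WT ESC had 97.2%, 49.6%, 26.6% and 25.3%. High H3K27me3 shares were thus not particular to the 601 sites. At the 601, H3K27me3 was present in clone 1 at 1 site and in clone 2 at 4.

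Most bivalent sites of WT ESC had H3K4me3 in the clones. Of 1364 WT ESC H3K4me3 peaks that overlap H3K27me3, 97.4% (96.5 to 98.1) had H3K4me3 in both clones, against 82.9% (82.4 to 83.5) of the 18104 WT ESC peaks without H3K27me3. These groups were not matched by H3K4me3 score. Presence in both clones rose from 35.5% of WT ESC regions scoring under 60 to 99.8% of those scoring 1000 or more. The part of the score in the difference was not tested. Counted by H3K27me3 peak the share of bivalent sites was lower. Of 1508 WT ESC H3K27me3 peaks that overlap H3K4me3, 89.2% (87.5 to 90.7) had H3K4me3 in both clones, 89.5% in clone 1 and 97.9% in clone 2, and 84.6% had it in Utx-KO ESC. H3K27me3 was found at 9 of the 1364 in either clone, 0.660% (0.348 to 1.25), 4 of them in clone 1 and 5 in clone 2. In Utx-KO ESC, set against the same WT ESC lists, 91.4% of these sites had H3K4me3 and 97.6% had H3K27me3.

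The 21 H3K27me3 regions that a clone shared with WT ESC were scattered over the genome. In clone 1 they scored 50.3 to 57.6, close to the lower limit of the list. Clone 1 had them on chromosome 1 from 186552004 to 186553997, on chromosome 2 from 74517615 to 74519550, on chromosome 17 from 35467340 to 35467842, on chromosome 18 from 35810862 to 35813993 and on chromosome 19 from 10530529 to 10531823. In clone 2 the 16 regions had a median score of 172. Of the 16, 6 lay on chromosomes 6 and 8, which held 16.4% and 16.8% of all clone 2 H3K27me3 peaks. The highest of the 16 was on chromosome 5 from 140028077 to 140029498, with a score of 351 in clone 2 and 67.3 in WT ESC, followed by chromosome 6 from 30910072 to 30911209 with 304 and 52.2 and chromosome 18 from 80906861 to 80909870 with 278 and 107. The region from 86085591 to 86086987 on chromosome 17 overlaps one of the 10 leading H3K4me3 regions in both clones and not WT ESC, so clone 2 carried both marks there. Of the 21, 19 had H3K27me3 in Utx-KO ESC and 10 had H3K4me3 in WT ESC. Over all 5679 WT ESC H3K27me3 peaks these shares were 78.6% and 26.6%.

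Most H3K27me3 peaks of the clones were in no other list. This held for 104 of 135 peaks in clone 1, 77.0% (69.3 to 83.3), and for 623 of 737 in clone 2, 84.5% (81.7 to 87.0), against 66.3% of the 36231 peaks in Utx-KO ESC and 19.0% of the WT ESC peaks. Utx-KO ESC shared 19.3% of the clone 1 peaks and 10.6% of the clone 2 peaks, and 78.6% of the WT ESC peaks. H3K4me3 of the same cells lay at 7.41% (4.07 to 13.1) of the peaks in clone 1, at 3.93% (2.75 to 5.59) in clone 2 and at 26.6% in WT ESC. Peaks of clone 2 were of nearly one width, with quartiles of 906 and 1052 bp around a median of 1001 bp, and those of clone 1 had a median of 596 bp, while WT ESC had quartiles of 711 and 1285 bp. The top peak of clone 1, on chromosome 5 from 136622945 to 136623622, scored 93.2 and was in no other list. The top peak of clone 2, on chromosome 9 from 35112492 to 35113418, scored 1615. It overlapped H3K4me3 in clone 1, Utx-KO ESC, WT MEF and Utx-KO MEF, H3K27me3 in WT MEF and Utx-KO MEF, and UTX in WT MEF and WT ESC. The peak ranked 2, on chromosome 2 from 98506086 to 98508468, scored 908. The peak ranked 5, on chromosome 9 from 3021771 to 3023880, scored 412. Both overlapped the same set of lists as the top peak. These 3 peaks thus recurred in lists of several marks and cell states. Whether they reflect H3K27me3 of clone 2 or signal common to many libraries was not tested. The third and the fourth, on chromosome 8 from 19240388 to 19241123 and on chromosome 15 from 52689425 to 52689941, scored 473 and 464 and were in no other list.

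Some chromosomes stood apart in the clones and were singled out after their values were seen. Chromosomes 6, 8 and 11 held 42.6% (39.1 to 46.2) of the clone 2 H3K27me3 peaks, 24.4% (17.97 to 32.3) of the clone 1 peaks and 19.3% (18.3 to 20.3) of the WT ESC peaks, and in the other H3K27me3 lists between 17.2% and 20.5%. Chromosome 6 had 16.4% of the clone 2 peaks, chromosome 8 had 16.8% and chromosome 11 had 9.36%, and no other autosome had more than 6.78%. In WT ESC these chromosomes had 4.53%, 6.39% and 8.36%, so chromosome 11 was within its clone 2 interval of 7.46 to 11.7. In clone 1 they had 11.1%, 5.93% and 7.41%, above WT ESC on chromosome 6 alone. Among the 135 top-scoring peaks of clone 2 the 3 chromosomes together held 28.9%. The same chromosomes led for H3K4me3. Per 100 regions in all 3 lists, regions in both clones and not WT ESC numbered 29.3 on chromosome 6, 25.8 on chromosome 8 and 24.7 on chromosome 11, while the other 16 autosomes had 12.8 to 22.4. Regions in clone 1 alone numbered 8.88, 7.56 and 7.39 per 100 there and 2.95 to 5.00 on the others. Regions in clone 2 alone were within the range of the others, with 46.0, 39.8 and 35.95 against 34.5 to 51.5. Peak scores at the regions in all 3 lists had medians of 1664, 1693 and 1738 in clone 1 and 2640, 2816 and 2992 in clone 2, above the 1128 to 1483 and 1867 to 2548 of the other autosomes, while in WT ESC the medians of 536, 684 and 747 were within the 500 to 807 of the others. In Utx-KO ESC against WT ESC, regions in Utx-KO ESC alone per 100 shared numbered 20.3 on chromosome 6, above the 14.0 to 19.7 of the other autosomes, and 15.8 on chromosome 8 and 15.7 on chromosome 11, within that range. Chromosome 6 thus led in Utx-KO ESC as well, by a smaller margin than in the clones. Chromosome X went the other way, with 11.1 regions per 100 in both clones and not WT ESC and median scores of 667 in clone 1, 1286 in clone 2 and 455 in WT ESC. Chromosome X was low outside the clones too. Regions in Utx-KO ESC alone numbered 9.11 per 100 there, below every autosome, and the WT ESC score was below that of every autosome. Peak scores grow with the reads a chromosome yields as well as with enrichment. The number of copies of each chromosome was not measured here, and its part in these values was not tested.

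**Figure D4:**
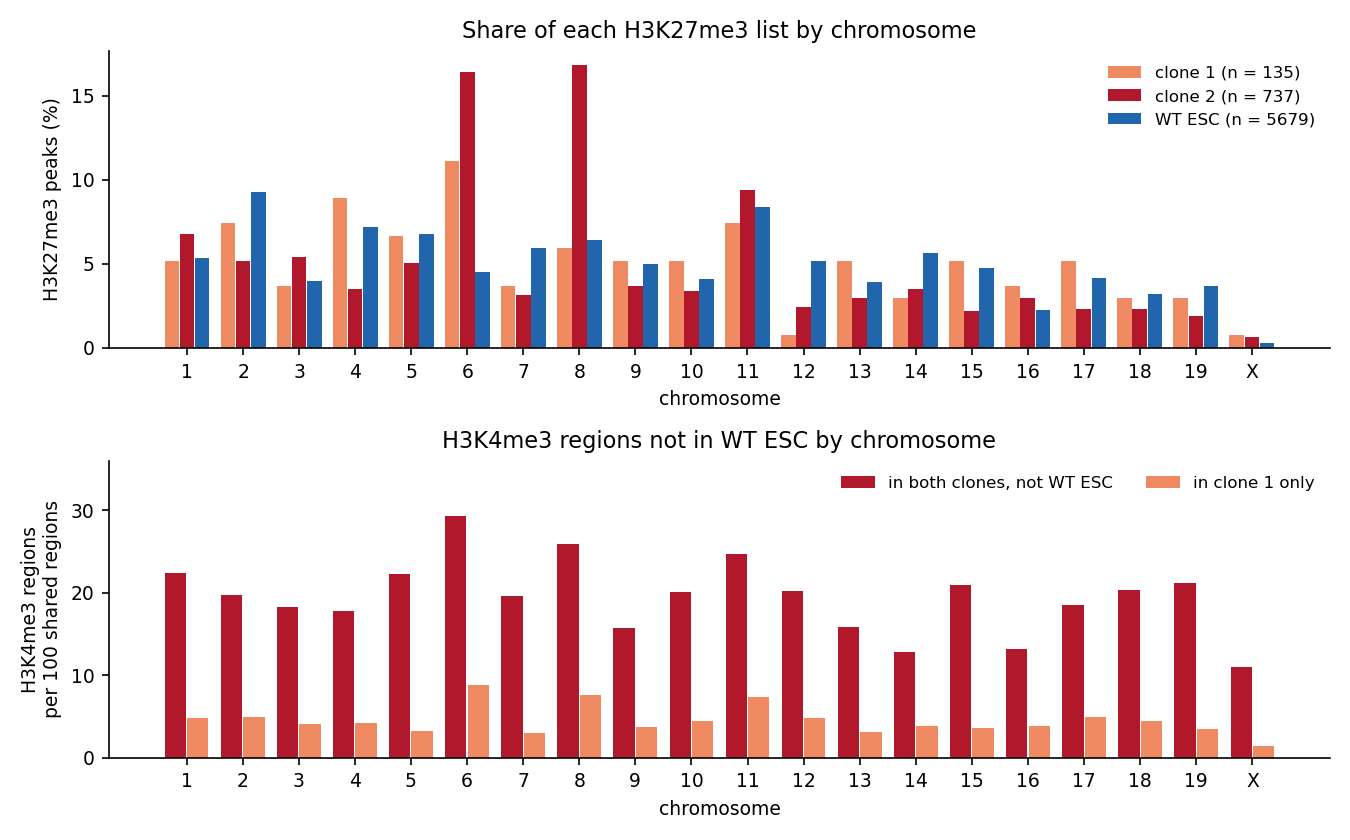
Top, percent of each H3K27me3 list on each chromosome in clone 1, clone 2 and WT ESC. Bottom, number of H3K4me3 regions in both clones and not WT ESC, and in clone 1 alone, per 100 regions in all 3 lists. Chromosomes 6 and 8 reach 16.4% and 16.8% of the clone 2 H3K27me3 peaks, and chromosomes 6, 8 and 11 have the 3 tallest bars of both kinds in the lower plot.

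Within chromosomes, regions of both clones that WT ESC lacked were densest on chromosome 10. The window from 80 to 81 Mb held 27 of them beside 55 regions in all 3 lists, and the window from 79 to 80 Mb held 22 beside 54. The window from 37 to 38 Mb on chromosome 18 held 18 beside 34. The median over the 2102 windows of 1 Mb with a region in all 3 lists was 1. WT ESC regions in neither clone were densest on chromosome 4 from 146 to 147 Mb, with 10 beside 11 regions in all 3 lists and 0 in both clones and not WT ESC, and the median over windows was 0. These windows were chosen after their values were seen, and no chance level was computed for them.

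The width of H3K4me3 separated the clones from each other. Over the 16017 regions in all 3 lists, the median width was 1800 bp in clone 1, 2401 bp in clone 2 and 2321 bp in WT ESC. The median log2 ratio of the width in the clone to the width in WT ESC was -0.39 in clone 1, with quartiles of -0.63 and -0.18, and 0.01 in clone 2, with quartiles of -0.16 and 0.22. Merged with WT ESC one at a time, clone 1 gave -0.39 and clone 2 gave 0.00079, so that the mean over the clones of -0.19 was smaller than the spread between them (SD 0.27, n = 2). Clone 1 peaks were also more broken up: 16.7% of these regions held more than 1 clone 1 peak, against 3.66% for clone 2 and 2.56% for WT ESC. In Utx-KO ESC the median log2 width ratio to WT ESC was -0.09.

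**Figure D5:**
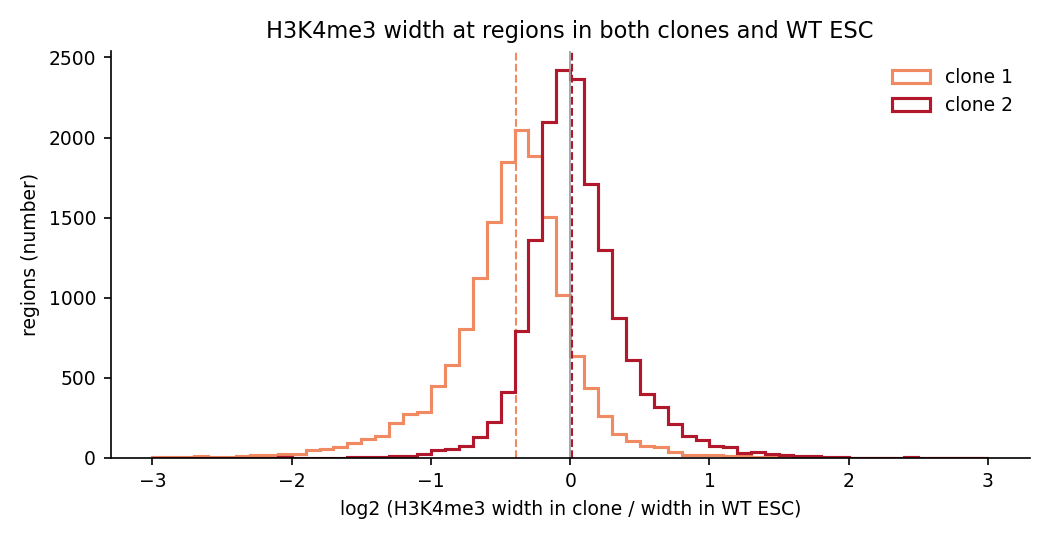
Distribution of the log2 ratio of H3K4me3 width in clone 1 and clone 2 to the width in WT ESC over 16017 regions in all 3 lists. Dashed lines are the medians, -0.39 in clone 1 and 0.01 in clone 2, the grey line marks equal width, and ratios beyond 3 either way are drawn at 3.

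Bivalent regions had gained more, or lost less, width against WT ESC than the rest in each clone. The 1444 regions with H3K27me3 in WT ESC had median log2 width ratios of -0.14 in clone 1 and 0.25 in clone 2, against -0.40 and -0.01 at the 14573 regions without it. The regions with H3K27me3 were narrower in WT ESC, with a median of 1825.5 bp against 2381 bp, so the ratios were also taken within classes of WT ESC width. Among the 4005 regions that were narrowest in WT ESC, the ratios were -0.09 in clone 1 and 0.40 in clone 2 with H3K27me3, and -0.37 and 0.19 without it. Among the 4004 that were widest, they were -0.12 in clone 1 and 0.12 in clone 2 at the 132 regions with H3K27me3, and -0.45 and -0.10 without it. The difference between regions with and without H3K27me3 was thus present in narrow and in wide regions in both clones, with no test made. The 879 regions with UTX in WT ESC had ratios of -0.59 in clone 1 and -0.08 in clone 2, against -0.38 and 0.02 without UTX, and were wide in WT ESC, with a median of 3287 bp.

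Changes of at least 2-fold in both clones were few. Regions at least 2-fold wider in both clones numbered 57, which is 0.356% of the 16017, and those at least 2-fold narrower in both numbered 73, which is 0.456%. Of the 57, 38 or 66.7% (53.7 to 77.5) had H3K27me3 in WT ESC and 51 or 89.5% had it in at least 1 list outside the clones, while over all 16017 regions the shares were 9.02% and 30.3%. Of the 57, 46 were among the 4005 regions narrowest in WT ESC. In that class 28 of the 46 had H3K27me3 in WT ESC, and 624 of the 4005 did. The median WT ESC score of the 57 was 91.1, against 655 over all. Of the 73 narrower regions, 0 had H3K27me3 in WT ESC, which allows a share of up to 5.00%, 19 or 26.03% (17.3 to 37.1) had UTX in WT ESC, and 67 or 91.8% were marked in Utx-KO ESC, with a median WT ESC score of 593. Over all 16017 regions, 5.49% had UTX in WT ESC and 95.1% were marked in Utx-KO ESC. Of the 73, 37 were among the 4004 regions widest in WT ESC, and their UTX share was not compared within width classes. In Utx-KO MEF, H3K4me3 was at 54.4% of the wider regions and at 13.7% of the narrower ones, both below the 72.7% over all regions.

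The largest gain of width in both clones was on chromosome 18 from 11047668 to 11057892, where H3K4me3 spanned 6376 bp in clone 1 and 10225 bp in clone 2, against 1047 bp in WT ESC. It was followed by chromosome 2 from 147869185 to 147873039, with 3045 and 3855 bp in the clones and 775 bp in WT ESC. Both had H3K27me3 in WT ESC, in Utx-KO ESC and in 3 fibroblast states. The third was on chromosome 15 from 6335937 to 6340299, with 3312 and 4363 bp in the clones and 1069 bp in WT ESC. The largest loss in both clones was on chromosome 1 from 168063004 to 168069517, with 669 bp in clone 1 and 1216 bp in clone 2, against 6514 bp in WT ESC, where the scores were 88.8 and 97.4 in the clones and 1069 in WT ESC. On chromosome 17 the region from 37110531 to 37120292 measured 866 and 2318 bp in the clones and 9762 bp in WT ESC, and it carried UTX in WT ESC. All 5 regions with the largest loss were marked in Utx-KO ESC, and none carried H3K27me3 in any list.

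The strongest H3K4me3 peaks of the clones met those of other stem cells and of dox-treated fibroblasts at similar rates. With the 16157 top-scoring peaks of every list, 97.3% of the clone 1 peaks met one of clone 2, 90.8% one of WT ESC, 90.7% one of Utx-KO ESC, 89.5% one of dox-treated WT MEF, 87.9% one of dox-treated Utx-KO MEF, 72.8% one of WT MEF and 70.2% one of Utx-KO MEF. For clone 2 the shares were 89.8% with clone 1, 88.0% with WT ESC, 88.0% with Utx-KO ESC, 87.1% with dox-treated WT MEF, 85.5% with dox-treated Utx-KO MEF, 70.5% with WT MEF and 67.9% with Utx-KO MEF. In that direction the order of the 7 other lists was the same for both clones, with untreated fibroblasts last. Counted the other way, 88.6% of the Utx-KO MEF peaks and 85.9% of the WT MEF peaks met one of clone 1. The share was 84.7% for Utx-KO ESC, 84.0% for WT ESC, 81.6% for dox-treated WT MEF and 79.7% for dox-treated Utx-KO MEF. With clone 2, Utx-KO MEF and WT MEF again led the lists outside the clones, at 92.9% and 90.6%. The order thus depended on whose peaks were counted. Peak widths differed between the lists as well. In the full H3K4me3 lists the medians were 1118 bp in WT MEF and 832 bp in Utx-KO MEF, against 2379 and 3063 bp with dox. The part of peak width in these shares was not tested.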

How the data were processed

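Chromatin immunoprecipitation followed by sequencing was done for each mark in separate libraries, with formaldehyde cross-linking and sonication per the labels' protocols. CASAVA 1.8.2, Bowtie 0.12.5, MACS 1.4.1 and mm9 are named in the submitters' processing notes. The sources used here give neither their settings nor the control behind each list. The authors deposited 1 peak list per sample, with a score per peak. The deposited score behaves as the log-scaled probability that MACS writes. Samples were grouped by title and source name. 1 peak outside the numbered chromosomes, X and Y was left out, and whole-cell extracts were not analysed here.

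Peaks of clone 1, clone 2 and WT ESC were merged per mark where they shared at least 1 bp, and regions were classed by list. Widths are summed over the peaks of a list in a region. The log2 ratio compares regions in both clones and not WT ESC with regions in WT ESC and neither clone, each count plus 1. Coordinates are 1-based mm9 positions. Gene tables of another build were not used, so the planned gene and marker lists were not analysed here. Clone 1 and clone 2 entered as 2 samples, WT ESC as 1, so no test was made. The regions named come from the 10 leading of each class by score (by the lower clone score where both clones have a peak), the 5 with the largest gain and the 5 with the largest loss of width in both clones, every H3K27me3 region a clone shares with WT ESC, and the 5 highest H3K27me3 peaks of each clone. The members, the lists and the naming rule were chosen with earlier results of these data known. Alternatives were an overlap of 50% of the shorter peak, peaks scoring 100 or more, equal numbers of top-scoring peaks, autosomes, each clone alone, unmerged peaks, peaks widened by 2500 bp and regions with 1 peak in each list. A score minimum for WT ESC alone, and leaving out chromosomes 6, 8 and 11, were added after seeing the data. Simulated peaks with known overlaps, and bedtools 2.31.1, were used to test the code. It ran in Python 3.11.15 with pandas 2.3.3, numpy 2.4.6, matplotlib 3.10.9 and scipy 1.17.1.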

Additional observations from a re-analysis of the deposited data

How the results depend on the processing

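Across 17 values and 132 recomputations, 84 moved by less than the spread between the clones (for counts, by less than 1.5 times, and for the chromosome share of clone 2, by less than its counting interval), 45 moved by more and 3 changed direction, the last being width with clone 2 alone. The recomputations include each clone alone, from which the spread itself was taken, so part of the 84 was fixed in advance. With equal numbers of top-scoring peaks, the H3K4me3 log2 ratio was -0.86. The H3K27me3 log2 ratio of regions in either clone to WT ESC, -2.73 in the full lists, was then 1.00. That value was set by the cut, since 2 clone lists of 135 peaks stood against 1 WT ESC list of 135. No conclusion is drawn from this change of direction. In the same setting 0.741% of WT ESC H3K27me3 regions were in a clone. Of the H3K4me3 regions in both clones and not WT ESC, 23.9% were found in Utx-KO MEF. A score of at least 100 gave 2.96 and -0.51 for the 2 ratios, 92.9% of WT ESC H3K4me3 regions and 99.4% of bivalent sites in both clones, and UTX at 13.9% of the WT ESC regions in neither clone. That minimum for WT ESC alone gave 3.93 and 93.7%. An overlap of 50% left UTX at 10.7% and put 3.01% of clone H3K27me3 peaks on H3K4me3 of the same clone, 5.67% being the mean at 1 bp. Widening peaks put 1.29% of WT ESC H3K27me3 regions in a clone. Leaving out a clone gave ranges of 0.53 to 2.79 and -5.44 to -2.97 for the ratios, 84.3% to 92.4% and 97.6% to 99.6% for H3K4me3 kept, 0.0880% to 0.282% for H3K27me3 kept, -0.39 to 0.00079 for width, 10.4% to 15.0% for such regions in Utx-KO MEF, 13.6% to 16.7% for UTX and 3.93% to 7.41% for H3K27me3 on H3K4me3. Without chromosomes 6, 8 and 11 the H3K4me3 ratio was 1.09. Equal numbers and score minima change which peaks are counted, and the cause of the other changes was not tested. No paired analysis was possible because no test was made and the clone numbers have no counterpart in WT ESC. Read depth is unknown, and at 135 peaks of clone 1 the absence of H3K27me3 from a region says little.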
